A study of Mus musculus with 6 samples.

Results

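Expression of 9 genes of the pancreatic duct programme was followed in acinar preparations from mice with intact or floxed Trip12, the gene of a ubiquitin ligase. The genes were chosen by name and found through their Ensembl identifiers, 9 of the 55414 genes in the count tables. They were the transcription factor genes Sox9 (ENSMUSG00000000567, chromosome 11) and Onecut2 (ENSMUSG00000045991, chromosome 18) and the ciliary gene Pkhd1 (ENSMUSG00000043760, chromosome 1). The transport genes were Cftr (ENSMUSG00000041301, chromosome 6), Car2 (ENSMUSG00000027562, chromosome 3) and Slc4a4 (ENSMUSG00000060961, chromosome 5). Secreted proteins are encoded by Spp1 (ENSMUSG00000029304, chromosome 5), Ambp (ENSMUSG00000028356, chromosome 4) and Clu (ENSMUSG00000022037, chromosome 14). RNA sequencing had been performed on 6 preparations labelled as pancreatic acinar cells of adult, untreated mice. The 3 control preparations had the genotype Pdx1Cre;Trip12+/+ and the 3 knockout preparations Pdx1Cre;Trip12fl/fl, so that both groups carried the Cre recombinase. The Pdx1 promoter is active in the progenitors of acinar, duct and islet cells, and Cre under its control is not specific to acinar cells. How the cells were isolated, and whether animals were pooled, is not given in the sources used here, and the growth protocol in the labels describes cultured tumour cell lines. The labels call the preparations biological replicates without saying whether each is 1 animal, and p-values measure the spread between these preparations.

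Pancreatic ducts collect the enzymes that acinar cells secrete and flush them towards the gut in a bicarbonate-rich fluid. SOX9 and the Onecut factors help to set duct identity during development, and adult acinar cells can switch on part of this programme when they take on duct-like features. Carbonic anhydrase makes bicarbonate from carbon dioxide and water, the cotransporter encoded by Slc4a4 brings bicarbonate in from the blood side, and the CFTR chloride channel drives its release into the lumen. Fibrocystin, the product of Pkhd1, sits on the primary cilium of duct cells. Osteopontin (Spp1), alpha-1-microglobulin with bikunin (Ambp) and clusterin (Clu) are released by duct epithelium, although other cell types make each of them too.

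The libraries held 31019500 to 34041901 gene counts. Trip12 itself averaged 25.9 CPM (counts scaled to a common library size with TMM factors) ± 3.36 (SD, n = 3) in the controls and 14.03 CPM ± 0.917 in the knockouts, without overlap (adjusted p = 0.0256, edgeR's quasi-likelihood test). Whole-gene counts cannot show which exons are missing. The 10 acinar markers summed to between 290500 and 442800 CPM in the 6 libraries, so the labelled cell type was present. The 10 duct markers outside the 9 genes summed to between 217.8 and 343.7 CPM. Krt8, Krt18 and Muc1 led that sum in every library, and acinar cells share Muc1, so the sum does not measure duct cells alone. Krt19 stood at 7.17 to 18.3 CPM. In control replicates 2 and 3 Xist reached 2118 and 2440 counts, with at most 5 elsewhere, while Y-linked genes had 1205 to 1784 counts in the other 4 libraries. Control replicate 1 was therefore the sole male control, and sex and genotype can be told apart only through it. Reads mapped to several places were 26.0% to 28.4% of all reads in control and 21.6% to 24.1% in knockout. Same-numbered control and knockout libraries deviated together, and tests are given without and, where it changes the call, with the replicate number as a block. That block was chosen from these same data.

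The RefSeq promoters (GRCm38.p6, 250 bases before to 50 after the start) of the 3 genes that were called higher once the replicate number was blocked are shown because these genes carry the calls. Of 2 listed for Spp1 the one farther upstream is printed. Capitals mark matches, on either strand, to the TATA box TATAAA, the Onecut core ATTGAT and the SOX core AACAAT.
Pkhd1, chr1:20618008-20618307, minus strand: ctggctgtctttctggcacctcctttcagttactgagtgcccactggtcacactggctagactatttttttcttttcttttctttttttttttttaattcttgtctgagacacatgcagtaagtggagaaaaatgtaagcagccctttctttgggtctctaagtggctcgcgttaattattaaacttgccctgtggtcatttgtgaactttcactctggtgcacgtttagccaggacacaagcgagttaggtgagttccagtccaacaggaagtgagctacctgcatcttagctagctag
Spp1, chr5:104434861-104435160, plus strand: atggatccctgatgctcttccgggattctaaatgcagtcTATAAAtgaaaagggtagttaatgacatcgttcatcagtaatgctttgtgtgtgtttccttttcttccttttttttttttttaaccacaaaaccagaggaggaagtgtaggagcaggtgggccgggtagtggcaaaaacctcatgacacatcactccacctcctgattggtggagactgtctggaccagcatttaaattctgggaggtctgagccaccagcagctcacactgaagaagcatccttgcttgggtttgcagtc
Ambp, chr4:63154123-63154422, minus strand: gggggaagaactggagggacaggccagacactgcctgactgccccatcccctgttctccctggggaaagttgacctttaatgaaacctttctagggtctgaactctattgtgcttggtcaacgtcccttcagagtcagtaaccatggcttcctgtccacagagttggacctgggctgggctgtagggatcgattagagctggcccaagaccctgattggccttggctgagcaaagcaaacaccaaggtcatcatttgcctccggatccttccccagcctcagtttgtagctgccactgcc
The printed Spp1 promoter held a match to the sequence TATAAA beginning 211 bases before the start. Of 32851 promoters of this length 13.6% hold such a match, and whether it works as a TATA box was not tested. The other Spp1 promoter and those of Pkhd1 and Ambp held none of the 3 motifs, and none of these promoters held the Onecut core (7.54% of promoters) or the SOX core (10.7%).

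Ambp, Car2, Spp1 and Pkhd1 had higher values in knockout, Cftr had lower values, and Sox9, Clu and Slc4a4 had fold changes within their standard errors of 0. None of the 8 genes that passed the filter on low counts was called in edgeR's quasi-likelihood test at an adjusted p under 0.05, against 0.945% of all 13115 genes tested (0.465% higher and 0.480% lower). At an unadjusted p under 0.05 there were 4 higher and 1 lower, against 8.45% and 8.27% of all genes. DESeq2's Wald test called 2 (Spp1 and Ambp), against 4.52% of all genes (1.97% higher and 2.55% lower). With the replicate number as a block, edgeR called 3 of 8, Pkhd1, Spp1 and Ambp, all higher, against 5.99% of all genes called and 3.40% called higher. The control and knockout ranges did not overlap for 3 higher genes (Spp1, Ambp and Car2) and 1 lower gene (Cftr), against 12.0% and 10.9% of all genes. Onecut2 did not pass the filter. The median log2 fold change of the 8 was 0.49, against 0.02 over all genes tested. The blocked calls changed with the pair left out. Without pair 1 only Pkhd1 was called (against 3.09% of all genes), without pair 2 only Ambp (0.729%), and without pair 3 all 3 (6.11%). Without the block, leaving out control replicate 1 gave 1 call (Pkhd1, against 3.41% of all genes) and leaving out knockout replicate 2 gave 2 (Spp1 and Ambp, against 0.640%). With no filter on low counts 3 were called, against 3.30%, and with forward-strand counts 1, against 1.31%. TMM factors were 0.785 to 1.02 in control and 1.12 to 1.19 in knockout, and library totals in their place gave 3 calls (Car2, Spp1 and Ambp), against 11.6%. With sex as a covariate none was called, against 21 of all 13115 genes. Log2 fold changes in that fit were 1.38 for Ambp, 1.88 for Car2, 0.92 for Spp1, 0.17 for Pkhd1 and -1.11 for Cftr. In bulk RNA, fewer or more cells of a type and less or more RNA per cell cannot be told apart.

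**Figure D1:**
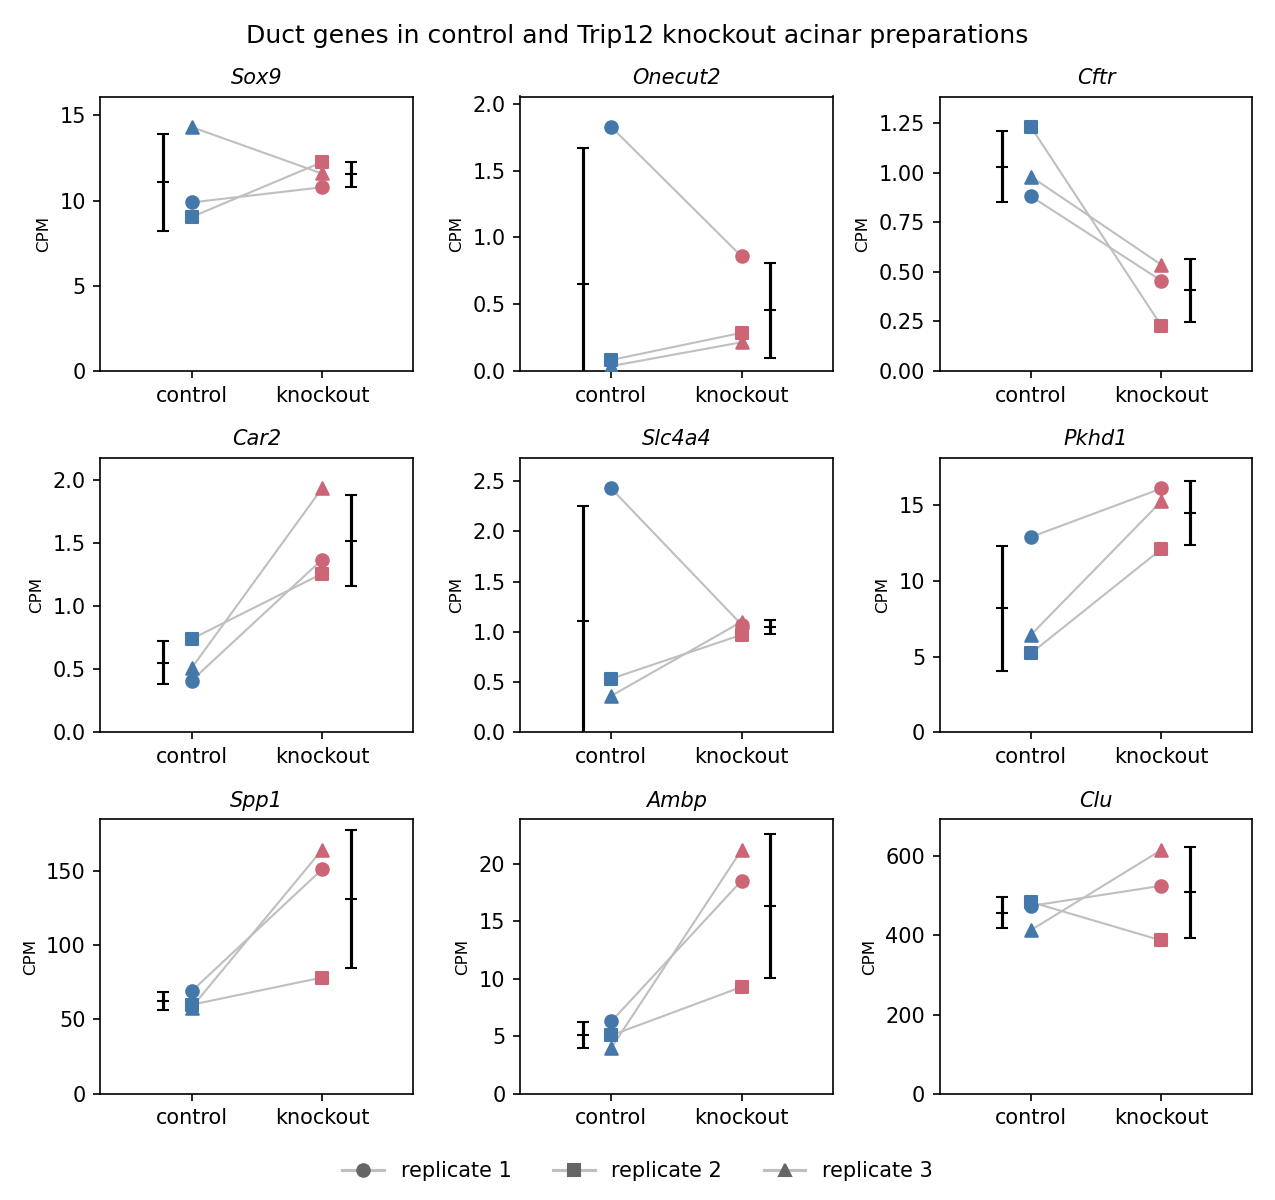
TMM-normalised CPM (linear axes from 0) of the 9 duct genes in 3 control (blue) and 3 knockout (red) libraries, with lines joining libraries of the same replicate number and black bars giving the mean ± SD (cut at 0 where the SD exceeds the mean). Spp1, Ambp and Car2 lie higher and Cftr lower in all 3 knockouts, while Onecut2 and Slc4a4 are highest in control replicate 1.

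Per length, as CPM divided by exonic kilobases (RPKM), Clu and Spp1 stood above the other 7 genes. In control, Clu averaged 133 RPKM ± 11.2 (SD, n = 3), Spp1 37.8 RPKM ± 3.55 and Ambp 3.64 RPKM ± 0.817. Sox9 followed at 2.68 RPKM ± 0.686, and the ranges of Ambp and Sox9 overlapped. Pkhd1 averaged 0.572 RPKM ± 0.288 and Car2 0.228 RPKM ± 0.0699, each apart from its neighbours. Cftr (0.133 RPKM ± 0.0232), Slc4a4 (0.102 RPKM ± 0.106) and Onecut2 (0.0400 RPKM ± 0.0629) overlapped from one to the next. The order of means in knockout was the same except that Slc4a4 (0.0969 RPKM ± 0.00629) lay above Cftr (0.0524 RPKM ± 0.0206), without overlap. Ambp (11.6 RPKM ± 4.44) and Sox9 (2.79 RPKM ± 0.178) no longer overlapped there. Exon lengths came from the GRCm38 annotation and only approximate those behind the counts.

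Sox9, the transcription factor that marks adult ducts and is low in resting acinar cells, had similar means in both groups. Control replicates 1 to 3 gave 9.89, 9.04 and 14.3 CPM, and knockout replicates 1 to 3 gave 10.8, 12.2 and 11.6 CPM. The knockout values fell inside the control range. This was a fold change of 0.06 on the log2 scale (SE 0.18), at an edgeR adjusted p of 0.919. Onecut2, a relative of the early duct and liver regulator HNF6, was near the limit of detection outside replicate 1. It stood at 58, 2 and 1 counts in the controls, against 32, 10 and 8 in the knockouts. Both libraries numbered 1 were the highest of their group. Control replicates 2 and 3 lay under 3 counts and the gene did not pass the filter, so no fold is given.

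Of 18 other regulators fixed as a list, 17 were tested and none was called without the block. The median log2 fold change was 0.05, against 0.02 over all genes. At an unadjusted p under 0.05 in edgeR's quasi-likelihood test 3 were higher and 2 lower, against 8.45% and 8.27% of all genes. DESeq2's Wald test called Ehf higher, against 1.97% of all genes. With the block Prox1 and Ehf rose and none fell, against 3.40% of all genes called higher and 2.58% lower. Ehf, an epithelial ETS factor, stood at 9.83, 5.997 and 6.33 CPM in the controls, against 15.7, 13.7 and 21.7 CPM in the knockouts, without overlap (log2 fold change 1.203, adjusted p = 0.0663 without and 0.00713 with the block, edgeR). With sex as a covariate the log2 fold change of Ehf was 0.79. Prox1, a homeobox regulator of pancreas and liver development, stood at 3.87, 1.36 and 3.45 CPM in the controls, against 6.35, 4.60 and 10.8 CPM in the knockouts (adjusted p = 0.237 without and 0.00742 with the block, edgeR). Onecut1, the gene for HNF6 itself, averaged 2.03 CPM ± 0.870 and 3.97 CPM ± 0.833, without overlap and without a call in either edgeR fit (adjusted p = 0.222 and 0.0660). Elf3, another epithelial ETS factor, averaged 4.41 CPM ± 0.485 and 2.43 CPM ± 0.697, lower without overlap (adjusted p = 0.139 and 0.0573, edgeR). Hnf4a, a regulator of endoderm-derived epithelia, averaged 16.5 CPM ± 4.97 and 10.4 CPM ± 0.297, also lower without overlap (adjusted p = 0.162 and 0.0618, edgeR). Hes1, a Notch target active in ducts, had 5.32 CPM ± 0.370 and 5.43 CPM ± 0.736.

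The 3 transport genes each behaved differently. Car2, the cytosolic carbonic anhydrase that is abundant in duct cells, stood at 13, 18 and 14 counts in the controls, against 51, 44 and 72 in the knockouts. In CPM these were 0.410, 0.739 and 0.509 against 1.37, 1.26 and 1.93. Every knockout library was above every control, a 2.75-fold difference in means. Car2 had a fold change of 1.46 on the log2 scale (SE 0.41). Its adjusted p in edgeR was 0.136, and 0.0568 with the block, so that it was called in neither fit. Red blood cells also hold this enzyme. Erythroid markers summed to 1.40 to 8.73 CPM in the controls and 1.599 to 6.92 CPM in the knockouts, and Car1 had at most 2 counts in any library. The part of red blood cells in the Car2 values was not tested.

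Cftr went the other way. It stood at 28, 30 and 27 counts in the controls, against 17, 8 and 20 in the knockouts. The values of 0.882, 1.23 and 0.982 CPM in control all lay above 0.456, 0.228 and 0.536 CPM in knockout. The knockout mean was 0.394 of the control mean, or -1.33 on the log2 scale (SE 0.48). The adjusted p in edgeR was 0.220, and 0.132 with the block. The exact two-sided permutation test gave p = 0.1 for Cftr, as for Car2, Spp1 and Ambp, the smallest that 3 against 3 allows. Counts this low limit the precision of both folds. Reads were counted here without regard to strand, and the antisense gene models that overlap Cftr and Pkhd1 took 2 counts each over all libraries. Ambiguous reads stayed outside gene counts, so these numbers do not show how many reads the overlaps cost.

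The Slc4a4 comparison turned on 1 library. It had 2.43 CPM in control replicate 1 and 0.534 and 0.364 CPM in control replicates 2 and 3, against 1.07, 0.971 and 1.10 CPM in knockout. The knockouts were close together and inside the control range. The log2 fold change was -0.09 (SE 0.67), and it became 1.195 without control replicate 1 (adjusted p = 0.964 and 0.182, edgeR) and -1.21 with sex as a covariate. Control replicate 1 also had the highest sum of leukocyte markers other than macrophage genes, 54.8 CPM against 1.75 to 27.4 CPM in the other 5 libraries. Their part in the Slc4a4 and Onecut2 values was not tested.

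Among 35 further genes of ion and water transport, 27 were tested. Without the block 1 was called, Car9, against 0.945% of all genes, and the median log2 fold change was -0.05. Car9 encodes a carbonic anhydrase of the cell surface that is strongly induced by low oxygen in many tissues. It stood at 7, 11 and 8 counts in the controls, against 106, 98 and 104 in the knockouts, or 0.221, 0.452 and 0.291 CPM against 2.84, 2.80 and 2.79 CPM. The knockouts were 8.75-fold higher in the mean and nearly equal to each other. The difference was 3.13 on the log2 scale (SE 0.37, adjusted p = 0.00894, edgeR). The call was lost without knockout replicate 1 or 3 (adjusted p = 0.0582 and 0.0630), with sex as a covariate (0.0861) and among males alone (0.0813), with log2 fold changes of 3.12 to 3.67 in those edgeR fits.

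With the block Aqp1 and Atp1b1 rose as well, against 3.40% of all genes. Aqp1, a water channel of ducts and also of capillary endothelium, stood at 16.2, 3.08 and 4.22 CPM in the controls, against 29.3, 8.25 and 8.18 CPM in the knockouts. Libraries numbered 1 were highest in both groups, and the ranges overlapped (adjusted p = 0.682 without and 0.00321 with the block, edgeR). The log2 fold change of Aqp1 was 0.95, and -0.0833 with sex as a covariate. The 5 endothelial markers summed to 78.6, 18.6 and 30.97 CPM in the controls, against 101.3, 29.5 and 35.1 CPM in the knockouts, and were thus also highest in libraries 1. No endothelial marker was called in either fit. All 5 had log2 fold changes above 0, as had 6866 of all 13115 genes. In all 3 pairs 4 of them were higher in knockout, against 24.2% of all genes. The part of endothelial cells in the Aqp1 values was not tested. Atp1b1, a subunit of the sodium pump, stood at 15.9, 6.57 and 10.5 CPM in the controls, against 24.5, 12.9 and 21.6 CPM in the knockouts (adjusted p = 0.334 and 0.00569, edgeR). Its log2 fold change of 0.83 became 0.30 with sex as a covariate. The chloride-bicarbonate exchangers that work beside CFTR and at the blood side, Slc26a6 (15.1 CPM ± 2.10 and 11.7 CPM ± 1.36) and Slc4a2 (16.7 CPM ± 2.58 and 15.8 CPM ± 0.506), were not called, and neither was Sctr, the secretin receptor (2.052 CPM ± 1.56 and 2.23 CPM ± 0.671).

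Pkhd1 was higher in knockout within every numbered pair. Control replicates 1 to 3 gave 12.9, 5.22 and 6.43 CPM, and knockout replicates 1 to 3 gave 16.1, 12.1 and 15.2 CPM. Control replicate 1 reached into the knockout range, while the other 2 controls lay far below it. The ratio within pairs was 1.25, 2.31 and 2.37. Without the block the log2 fold change was 0.82 (SE 0.34, adjusted p = 0.292, edgeR). With it the value was 0.91 (SE 0.19, adjusted p = 0.0210, edgeR). Leaving out control replicate 1 gave 1.29 and a call (adjusted p = 0.0129), whereas sex as a covariate gave 0.17 (adjusted p = 0.833), so the value for Pkhd1 rested on which controls were used. All 8 other genes of the cilium and the tube wall were tested. None was called without the block and none had an unadjusted p under 0.05 in edgeR's quasi-likelihood test or a call in DESeq2, and the median log2 fold change was 0.29. With the block Bicc1 and Dcdc2a rose, against 3.40% of all genes. Bicc1, an RNA-binding protein whose loss gives kidney and duct cysts, stood at 12.6, 5.42 and 6.47 CPM in the controls, against 17.8, 8.71 and 15.5 CPM in the knockouts (adjusted p = 0.408 and 0.0175, edgeR). Dcdc2a, which encodes a ciliary doublecortin protein, had 9.07, 4.40 and 6.43 CPM against 12.8, 6.79 and 15.7 CPM (adjusted p = 0.338 and 0.0216, edgeR). Both showed the same high control replicate 1 as Pkhd1. The blocked calls of both were lost without pair 2 (adjusted p = 0.170 and 0.172, edgeR) or pair 3 (0.0611 and 0.0958). Log2 fold changes of 0.77 and 0.82 became 0.15 and 0.38 with sex as a covariate. The 8 stellate and fibroblast markers summed to 85.8, 24.3 and 33.4 CPM in the controls and 103.8, 25.2 and 98.5 CPM in the knockouts, so they too were highest among controls in replicate 1 and lowest among knockouts in replicate 2. None of the 8 markers was called in either fit. All 8 had log2 fold changes above 0, as had 6866 of all 13115 genes. In all 3 pairs 4 of them were higher in knockout, against 24.2% of all genes. The part of stellate cells and fibroblasts in the values of Pkhd1, Bicc1 and Dcdc2a was not tested. Polycystin genes Pkd1 and Pkd2 were not called in either fit.

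Spp1 and Ambp ordered the 6 libraries identically. Spp1, which encodes the integrin- and CD44-binding glycoprotein osteopontin, stood at 69.0, 59.9 and 58.0 CPM in the controls, against 150.7, 78.1 and 164 CPM in the knockouts. The controls were tight, and knockout replicate 2 was the lowest knockout but still above them. The means were 62.3 CPM ± 5.85 (SD, n = 3) and 131 CPM ± 46.1, a 2.10-fold difference. Spp1 had a fold change of 1.07 on the log2 scale (SE 0.27). Its adjusted p in edgeR was 0.108, 0.0177 with the block and 0.0257 without knockout replicate 2. An unclassified gene model overlaps a Spp1 exon in the GRCm38 annotation and took 55 counts over all libraries. Ambiguous reads stayed outside gene counts, so this number does not show how many Spp1 reads the overlap cost.

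Ambp, whose precursor is cut into the lipocalin alpha-1-microglobulin and the protease inhibitor bikunin, stood at 6.30, 5.09 and 3.999 CPM in the controls, against 18.5, 9.31 and 21.2 CPM in the knockouts. Again all knockouts were above all controls and knockout replicate 2 was the lowest of them. The means were 5.13 CPM ± 1.15 (SD, n = 3) and 16.4 CPM ± 6.25, a 3.19-fold difference. Ambp had a fold change of 1.67 on the log2 scale (SE 0.33). Its adjusted p in edgeR was 0.0719, 0.0173 with the block and 0.0113 without knockout replicate 2. Among males alone, with 1 control, it was 1.40 and was not called.

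Clu, a chaperone-like secreted glycoprotein that rises in injured pancreas, was the most abundant of the 9 genes and was not called. It stood at 474, 484 and 413 CPM in the controls, against 525, 387 and 615 CPM in the knockouts. Knockout replicate 2 was the lowest of all libraries and knockout replicate 3 the highest. Its log2 fold change was 0.16 (SE 0.20), and edgeR gave an adjusted p of 0.771 and 0.745 with the block.

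**Figure D2:**
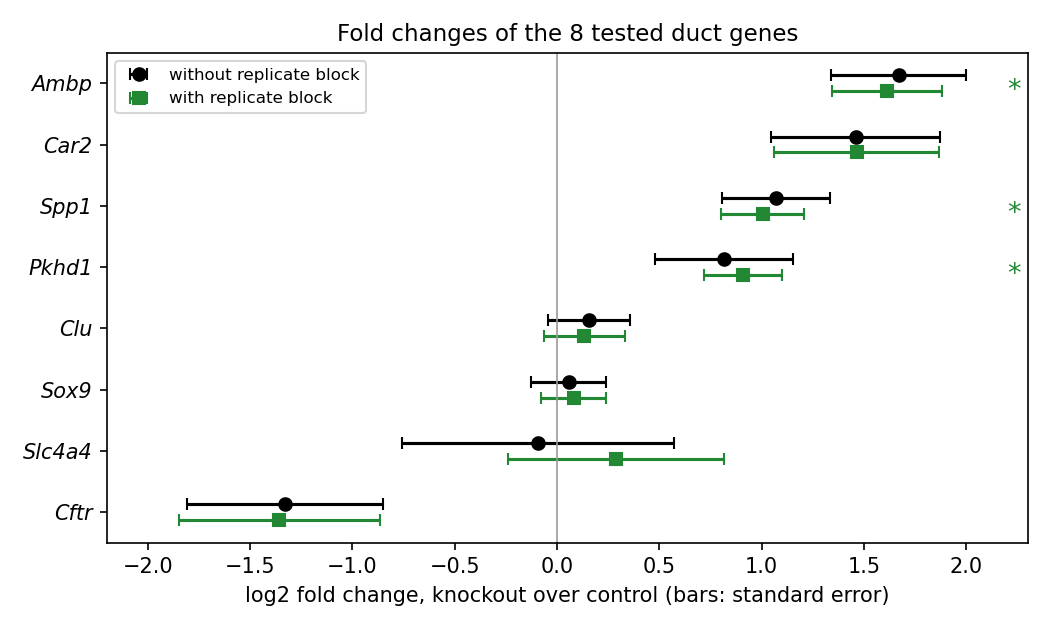
Log2 fold change (knockout over control) with standard error for the 8 tested duct genes, without (black) and with (green) the replicate number as a block in edgeR, with asterisks at an adjusted p under 0.05 with the block. With the block the standard error of Pkhd1 is 0.19 in place of 0.34, and Pkhd1, Spp1 and Ambp carry asterisks.

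Osteopontin is also a macrophage product. The 10 macrophage markers summed to 55.9, 19.3 and 25.4 CPM in the controls, against 55.6, 16.9 and 80.8 CPM in the knockouts. The groups overlapped, and Cd163 was at 0 counts in control replicate 2. In pairs 1 to 3 the knockout to control ratio of these markers was 0.996, 0.875 and 3.18, against 2.19, 1.30 and 2.82 for Spp1. Lyz2 made up most of the sum in controls 1 and 2 (32.9 and 15.2 CPM). Without it the other 9 summed to 22.96, 4.07 and 15.2 CPM in the controls and 27.1, 8.34 and 45.0 CPM in the knockouts, higher in the knockout in every pair by 1.18, 2.05 and 2.95 times. Of the 10, 5 were higher in the knockout in all 3 pairs and none was lower in all, against 24.2% and 20.7% of all genes. With the block 4 of the 10 (Adgre1, C1qa, C1qb and C1qc) were called higher, against 3.40% of all genes. Without it none was called, with 1 higher at an unadjusted p under 0.05 in edgeR's quasi-likelihood test, against 8.45%. The part of macrophages in the Spp1 values was not tested.

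Liver is the main source of AMBP in the body. Fgb had 0 counts in every library, Serpina1a had 5 counts in control replicate 1 and 0 elsewhere, and Apoa1 and Ahsg had at most 5. The 8 hepatocyte markers summed to 29.4 to 40.3 CPM in the controls and 21.7 to 37.3 CPM in the knockouts, most of it Ttr in every control, and 3 of them passed the filter. Without Ttr the other 7 summed to 5.29, 3.86 and 3.31 CPM in the controls and 13.2, 6.82 and 22.6 CPM in the knockouts. That sum did not overlap between the groups and ordered the libraries as Ambp did. Alb (log2 fold change 1.42) and Trf (1.95) were called higher in edgeR with the block (adjusted p = 0.0490 and 0.0341) and not without it (0.0938 and 0.201). Ttr, which islets also express, was called lower in both fits (log2 fold change -1.08, adjusted p = 0.0148 without and 0.00158 with the block). Of all genes 3.40% were called higher and 2.58% lower with the block. The part of hepatocyte transcripts in the Ambp values was not tested.

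**Figure D3:**
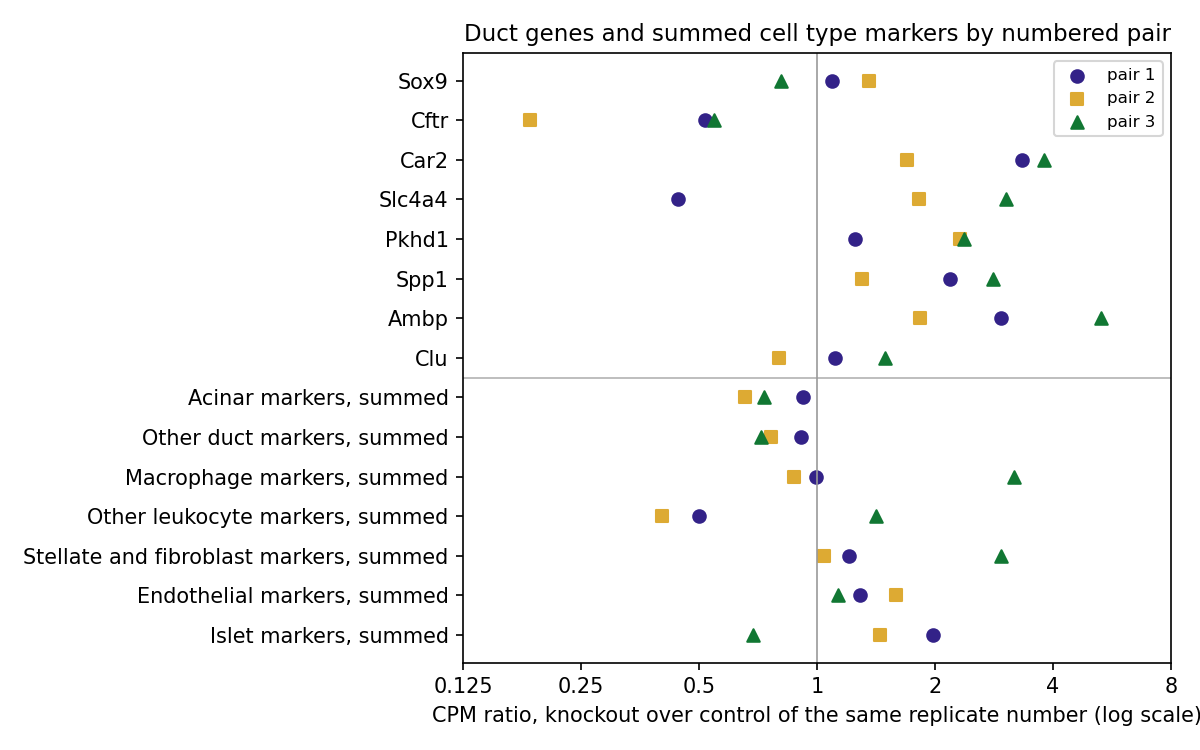
CPM ratio of knockout over control (log axis) within each numbered pair for the 8 tested duct genes (above the line) and for summed marker lists of other cell types (below it). Car2, Pkhd1, Spp1 and Ambp lie right of 1 and Cftr left of 1 in all 3 pairs, and the sum of macrophage markers, led by Lyz2, lies at 0.996, 0.875 and 3.18.

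In all 3 numbered pairs 4 of the 8 tested genes were higher in knockout and 1 was lower, against 24.2% and 20.7% of all genes. Duct markers outside the 9 genes went both ways. With the block Krt7, Epcam and Cldn4 rose and Krt19, Krt23 and Muc1 fell, against 3.40% and 2.58% of all genes. The summed level of the 10 was lower in every knockout (217.8 to 256.1 CPM) than in every control (281.6 to 343.7 CPM). Most of that sum was Krt8 (means of 79.6 CPM in control and 67.8 CPM in knockout), Krt18 (62.6 and 52.9 CPM) and Muc1 (100.2 and 59.5 CPM). Without the block none of the 10 was called in edgeR's quasi-likelihood test. At an unadjusted p under 0.05 in that test 2 were higher and 3 lower, against 8.45% and 8.27% of all genes. Acinar markers were also lower in sum, at 290500 to 307000 CPM in knockout and 329700 to 442800 CPM in control, a sum set by the enzyme genes. With the block 1 acinar marker fell, Ptf1a, and 1 rose, Rbpjl, an acinar transcription factor, against 2.58% and 3.40% of all genes. Rbpjl stood at 182.7, 279.6 and 179.6 CPM in the controls, against 485.6, 658.1 and 369.8 CPM in the knockouts (adjusted p = 0.0685 without and 0.00203 with the block, edgeR).

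Of 24 other secreted or surface products on the list, 23 were found and 16 tested. None was called without the block, with 2 higher and 2 lower at an unadjusted p under 0.05 in edgeR's quasi-likelihood test, and the median log2 fold change was 0.06. The shares over all genes at that p were 8.45% and 8.27%. DESeq2's Wald test called Pigr higher and Muc1 lower, against 1.97% and 2.55% of all genes. With the block Pigr rose and Muc1 fell, against 3.40% and 2.58%. Pigr, the receptor that carries IgA across epithelia, stood at 5.70, 5.87 and 5.05 CPM in the controls, against 19.3, 9.82 and 22.3 CPM in the knockouts. This gave a log2 fold change of 1.63 (adjusted p = 0.0567 without and 0.0123 with the block, edgeR). As with Spp1 and Ambp, knockout replicates 1 and 3 were high and replicate 2 intermediate. Muc1, a membrane mucin shared by acinar and duct cells, stood at 72.8, 102.3 and 125.6 CPM in the controls, against 61.0, 58.6 and 59.0 CPM in the knockouts (log2 fold change -0.75, adjusted p = 0.123 and 0.0355, edgeR). The log2 fold change of Muc1 was -0.29 with sex as a covariate, -0.27 among males alone and -0.31 with library totals, and its blocked call was lost without pair 2 or 3 (adjusted p = 0.351 and 0.0778, edgeR). That of Pigr was lost without pair 1 (adjusted p = 0.0937, edgeR).

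The partners of osteopontin and of bikunin were not called in either edgeR fit. Among genes for osteopontin receptors, Itgav (5.05 CPM ± 0.462 and 5.56 CPM ± 0.990) and Cd44 (2.43 CPM ± 2.65 and 1.45 CPM ± 0.859) overlapped between control and knockout. Itgb6, an epithelial partner of Itgav, averaged 0.671 CPM ± 0.143 in control and 1.67 CPM ± 0.116 in knockout without overlap (adjusted p = 0.130 and 0.0569 with the block, edgeR). Itgb1 averaged 50.1 CPM ± 2.54 and 45.7 CPM ± 0.483, lower in every knockout (adjusted p = 0.658, edgeR). The inter-alpha-inhibitor heavy chains, which are joined to bikunin, were represented by Itih2 (10.9 CPM ± 1.84 and 8.34 CPM ± 4.99) and Itih4 (10.7 CPM ± 5.25 and 21.8 CPM ± 10.4), both with overlap. Itih1 and Itih3 did not pass the filter.

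**Figure D4:**
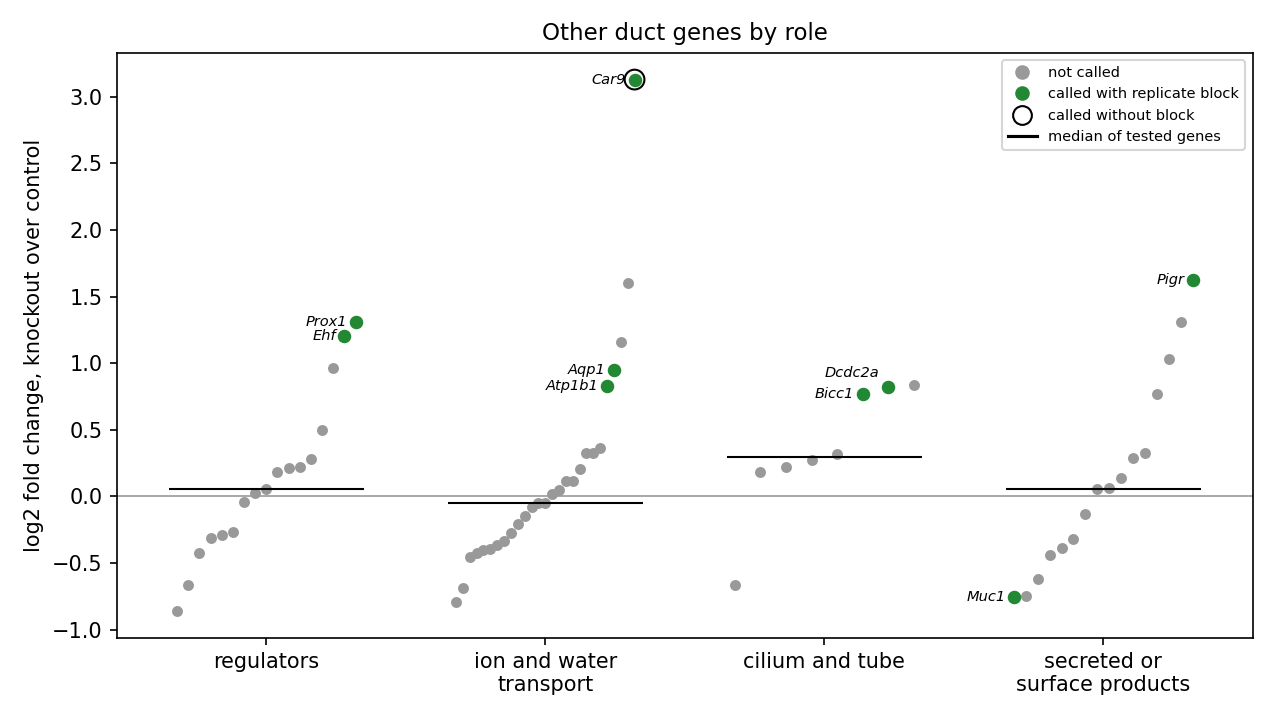
Log2 fold change (knockout over control, edgeR without block) of the 68 tested genes of the wider duct list, by role, with black lines at the medians. Car9 is the sole gene called without the block, and 8 genes called higher and 1 called lower with it are named.

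Over the whole wider list, 68 of 84 genes found were tested. Car9 was the sole call without the block, against 0.945% of all genes, and the median log2 fold change was 0.06. With the block 8 rose and 1 fell, against 3.40% and 2.58%. Without knockout replicate 1 or 3 no gene of the list was called in the fit without the block, and without control replicate 1 there were 5, against 3.41% of all genes, with Ehf and Car9 higher and Hnf4a, Muc1 and Tff2 lower. Without pair 2 the blocked calls were Car9 and Pigr alone, against 0.729% of all genes. With a minimum of 10 counts in each library Car9 was not tested, and the list's sole call without the block was Pigr.

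The genes whose log2 CPM followed each duct gene most closely over the 6 libraries are given as a description, from 6383 protein-coding genes with a mean of at least 5 CPM. They were Lrp5 (Pearson r = 0.987) and Zfp282 (0.990) for Spp1, Dazap1 (0.993) and Znrf3 (0.992) for Ambp, and H2afy (0.997) and Dab2ip (0.994) for Pkhd1. For Car2 they were Tef (0.997) and Pebp1 (0.991), for Cftr Capn2 (0.996) and Ube2n (0.979), and for Sox9 Smad7 (0.997) and Gnaq (0.981). Slc4a4 was followed by Fam49b (0.988) and Hivep2 (0.983), and Clu by Eapp (0.988) and Smarce1 (0.951). With 6 libraries, between 2 and 56 genes reached 0.95 for each, and the libraries share the group difference and their scaling.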

How the data were processed

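The authors deposited whole-number counts per gene for each library, raw and not pooled, with 1 column for reads regardless of strand and 1 per strand. STAR 2.7.10a and the build GRCm39 (mm39) are named per the submitters' processing notes, and the annotation is not given in the sources used here. The unstranded column was used. The 4 rows outside genes stayed out of library sizes and tests: unmapped reads were 9.70% to 13.02% of all reads, reads mapped to several places 21.6% to 28.4%, reads outside genes 0.893% to 2.18% and ambiguous reads 3.29% to 3.63%.

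Symbols and exonic lengths came from GENCODE M21 (GRCm38), which held 52133 of 55414 identifiers (94.08%). Promoters came from RefSeq GRCm38.p6, where 5 of the 9 genes were used. No promoter was converted between builds.

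Counts were fitted with edgeR 4.0.16 in R 4.3.3 (filterByExpr, TMM, robust quasi-likelihood F test) over 13115 genes, with Benjamini-Hochberg adjustment over all of them. A gene is called at an adjusted p under 0.05. The standard error is the fold change divided by the square root of F. CPM used TMM library sizes, and log2 CPM a prior count of 2. Alternatives were other scalings, filters, either strand, DESeq2 1.42.0, a sex covariate, each library left out and a replicate block. The edgeR fits were tested on simulated data with no difference between numbered pairs, which does not bear on the choice of the block. Simulated 2-fold changes were called in 43% of cases without and with the block. For 4-fold changes it was 85% without and 81% with the block.

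The labels number preparations 1 to 3 in both groups without saying what a number marks. Deviations from group means correlated at 0.63, 0.455 and 0.285 in pairs 1 to 3 and at -0.496 to 0.21 otherwise. All 3 were over 0.1, as was control replicate 3 with knockout replicate 2 (0.21), and the numbers were taken to pair the samples. Deviations within a group cancel by construction, so high values in same-numbered pairs lower the others, and the contrast is partly arithmetic. By Xist and Y-linked counts, pairs 2 and 3 each set a female control against a male knockout. The choice of pairing came from the same data, so p-values with the block are not independent of it. The 9 genes, the lists and the tests were chosen with earlier results of these data known. All 9 were named, with list genes called in either fit, and the 2 genes most like each tested gene. Other list genes were named, and sums without Lyz2 or Ttr taken, after values were seen. Counts cover counting error only, since reads carry no molecular identifiers. One gene of the lists is counted in their totals and is not reported here by name.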

Additional observations from a re-analysis of the deposited data

How the results depend on the processing

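The number of the 8 duct genes called (0) stayed at 0 with median-of-ratios factors, with enzymes left out of library sizes, with a minimum of 10 counts per library (7 genes tested), with reverse-strand counts, with the sex covariate and among males alone. It was 3 with library totals, 3 without a filter, 1 with forward-strand counts, 2 with DESeq2, 3 with the replicate block, and 1, 1 and 3 with the block and without pair 1, 2 or 3. Leaving out single libraries gave 0 to 2. Without a filter, without single libraries and with the block without pair 2 or 3, 9 genes were tested. Onecut2 was the added gene and was not called in those fits. For the wider list the count of 1 (Car9) stayed at 1 with the minimum of 10 counts, where the call was Pigr and Car9 was not tested. Of the 68 genes tested, 7 were called with library totals, against 11.6% of all genes, and 4 with DESeq2, against 4.52%. Without a filter 11 of 84 were called, against 3.30%. With forward-strand counts it was 2 of 62, against 1.31%, and with reverse-strand counts 3 of 60, against 149 of all 12927 genes. The sex covariate gave 0, against 21 of all 13115 genes. The block gave 9, against 5.99%, and 10, 2 and 9 without pair 1, 2 or 3, against 3.09%, 0.729% and 6.11%. Fits without single libraries gave 0 to 5. The block changed no other call among the 9 duct genes and the wider list. Library totals moved the median of all genes from 0.02 to 0.43, where Car2 was called (adjusted p = 0.0316, edgeR).

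Ambp, Car2, Spp1, Pkhd1 and Cftr kept their direction in every alternative in which they were tested. Ranges were 1.23 to 2.07 for Ambp, 1.23 to 1.90 for Car2, 0.76 to 1.48 for Spp1, 0.17 to 1.29 for Pkhd1 and -1.62 to -0.90 for Cftr. Signs turned for Sox9 and Clu, with main values near 0. They also turned for Slc4a4, from -1.21 with the sex covariate to 1.195 without control replicate 1. Aqp1 ran from -0.0833 with the sex covariate to 2.04 without control replicate 1. Sox9 was -0.0173 with forward-strand counts, -0.0935 with the block without pair 2, and -0.0708 to 0.29 without single libraries. Clu was -0.0871 with the block without pair 3 and -0.0059 to 0.3162 without single libraries. Slc4a4 was 0.20 with library totals, 0.033 with reverse-strand counts, 0.29 with the block, 1.195 and 0.034 with the block without pair 1 or 2, and -0.5028 to 1.195 without single libraries, the highest without control replicate 1. No fold is given for Onecut2 under any setting, although some of these fits tested it. Aqp1 was -0.0833 with the sex covariate and -0.0671 among males alone. The causes were not tested. Fits among males and blocked fits without a pair were chosen after seeing the data, and the lone male control is assumed to vary like the knockouts.

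Over all genes the 124 calls (61 higher) became 1519 (1442 higher) with library totals, 850 without a filter, 210 with the minimum of 10 counts, 593 with DESeq2, 785 with the block, 21 with the sex covariate, 18 among males and 20 to 461 without single libraries.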
